A study of Mus musculus with 6 samples.

Results

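The BCL2 family of mitochondrial apoptosis was followed here through 10 of its genes, out of 38293 genes counted, in fetal liver (FL) progenitors with and without hnRNP L. The members were chosen by name and matched from symbol to Ensembl identifier. They are the pro-survival genes *Bcl2*, *Bcl2l1* and *Mcl1*, the effectors *Bax* and *Bak1*, and the BH3-only genes *Bcl2l11*, *Bid*, *Bbc3*, *Pmaip1* and *Bmf*. All 10 passed the filter on low counts. hnRNP L is an RNA-binding protein that binds CA-rich RNA and regulates splicing. RNA was sequenced from 6 single embryos of the C57BL/6 strain at E14.5, 3 hnRNPL wild-type (wt) and 3 hnRNPL Knock-Out (hnRNP L deficient). Each library has an embryo number of its own in the labels, but the first part of that number is shared by deficient replicates 2 and 3, and by wt replicate 1 and deficient replicate 1. Whether it marks a litter is not given in the sources used here, so the embryos of a group may not be independent. Per the methods of the study, the cells were sorted Lin-cKit+ FL cells, and deficient embryos were VavCre+hnRNP L fl/fl, so that the deletion depended on a Cre driven by Vav, which is active in hematopoietic cells. The labels give FL cells as the source but whole embryo as the tissue. Gene counts cover all 6 libraries, and exon bin counts cover 5 of them, without hnRNP L deficient replicate 1, whose bins were not analysed here.

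Mitochondrial apoptosis is decided by contacts between BCL2 family proteins at the outer mitochondrial membrane. The effectors BAX and BAK open the membrane and release cytochrome c, the pro-survival proteins hold them back, and BH3-only proteins bind the pro-survival proteins or activate the effectors directly. In hematopoietic stem and progenitor cells MCL1 is a known requirement for survival, and BCL-XL, the long product of *Bcl2l1*, protects erythroid cells. Splicing can change the sign of a member: a short form of *Bcl2l1* (Bcl-xS) and a form of *Mcl1* without its middle exon are known to favour death.

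The following sequences are parts of *Bcl2l1* and *Mcl1* that bear on these short forms. They were searched for a motif here, and the splicing results below rest on read counts instead. The end of the large coding exon of *Bcl2l1* (exon bin 8, chr2:152829427-152829528, minus strand, GRCm38, exonic and coding) lies in the stretch that Bcl-xS lacks, and it is shown in capitals with the first 40 bases of the intron after it in lower case. The middle exon of *Mcl1* (exon bin 5, chr3:95659761-95660008, plus strand, exonic and coding) is the exon whose skipping gives the short form.
Bcl2l1 bin 8 and intron: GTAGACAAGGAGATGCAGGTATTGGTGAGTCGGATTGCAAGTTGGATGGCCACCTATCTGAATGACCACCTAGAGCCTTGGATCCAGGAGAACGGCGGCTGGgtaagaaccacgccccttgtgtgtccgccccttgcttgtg
Mcl1 bin 5: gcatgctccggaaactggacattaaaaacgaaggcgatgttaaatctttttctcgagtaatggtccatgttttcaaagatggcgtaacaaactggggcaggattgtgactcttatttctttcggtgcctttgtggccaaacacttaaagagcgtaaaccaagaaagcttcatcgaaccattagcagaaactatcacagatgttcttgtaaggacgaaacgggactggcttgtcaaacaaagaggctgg
The CA-repeat motif ACACA was searched on the transcribed strand. It had 0 matches in the 102 bases of the *Bcl2l1* bin, in the 142 bases printed with the intron, and in the 248 bases of the *Mcl1* exon, which is why no letter of the *Mcl1* exon is in capitals. Of windows of the same length tiled over the coding sequences of all genes, 10.8% of those of 102 bases and 24.1% of those of 248 bases held it. The letters were absent from these windows only, and nothing follows from this about binding elsewhere in either gene.

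The targeted gene was lower in each deficient library. *Hnrnpl* stood at 552, 531 and 528 CPM (read counts scaled to the library size) in wt replicates 1 to 3 and at 242, 288 and 270 CPM in the deficient replicates, a log2 fold change of -1.01 ± 0.088 (SE, n = 3 per group, edgeR adjusted p = 0.00724). The call was lost in 4 of the 6 fits that left out a library, without wt replicate 3 or without any of the deficient libraries, with adjusted p of 0.0517 to 0.0854. Reads on genes ranged between 55952160 and 76157226 per library, and a floor of 3 reads corresponded to 0.0402 to 0.054 CPM. Over all 14396 genes tested, 1341 were higher and 1418 lower. Wt replicate 2 stood apart in its myeloid genes: the summed level of 8 granulocyte and monocyte markers was 7960 CPM there, against 579 and 1480 CPM in the other wt libraries and 242 to 779 CPM in the deficient libraries. Stem and progenitor markers summed to 1120 to 1540 CPM in wt and 886 to 1000 CPM in deficient libraries, with 5 of 7 called lower, among them *Kit*, the receptor used for the sort (log2 fold change -0.62, adjusted p = 0.0402). Lymphoid markers summed to 19.8 to 53.4 CPM in wt and 2.97 to 4.01 CPM in deficient libraries (4 of 5 tested called lower, *Dntt* at 0 in all libraries and *Ebf1* at 0 in the deficient libraries, both named after their values were seen), and hepatocyte markers to 111 to 232 CPM and 21 to 71.4 CPM (2 of 6 called lower). In bulk RNA, fewer cells of a type and less RNA per cell cannot be told apart.

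Among the members, the transcript of the effector *Bax* rose and that of the pro-survival gene *Bcl2* fell in hnRNP L deficient cells, and the other 8 did not pass the test. *Bax* was higher by 1.77-fold and *Bcl2* was lower by 2.24-fold. By RT-qPCR in lineage-depleted FL or bone marrow cells, the study reported no evidence of a changed *Bcl2* mRNA level. Those cells were a different population from the sorted Lin-cKit+ cells sequenced here. The study also reported that a Bcl-2 transgene did not lower the level of stem cells staining for Annexin V, its reading of cell death, in deficient embryos. *Mcl1*, the most abundant pro-survival transcript, and *Bcl2l1* were not called. A call here is an adjusted p under 0.05 in edgeR's quasi-likelihood test over all genes tested, at which 19.2% of all genes were called, 9.32% higher and 9.85% lower. With 1 of 10 members called in each direction, the share of members called was near that background. The groups did not overlap for 5 of the 10 members, against 45.5% of all genes tested. The median log2 fold change was 0.067 over the members and -0.026 over all genes.

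**Figure D1:**
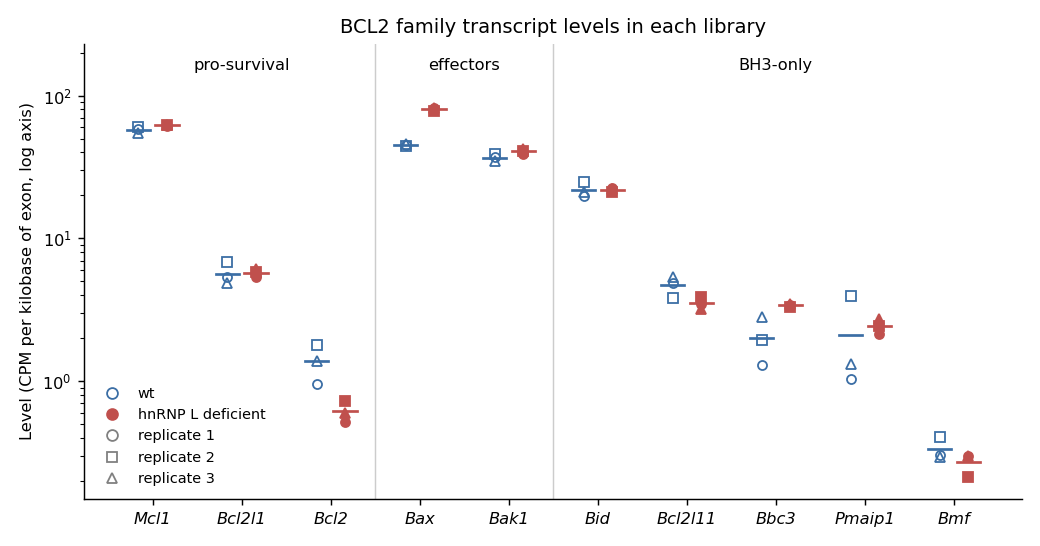
Level of each member in each of the 6 libraries, in CPM per kilobase of exon on a log axis, with open symbols for wt, filled symbols for hnRNP L deficient libraries, a symbol shape for each replicate number and a bar at each group mean. *Bax* sits at 44.7 to 46.2 in wt and 77.5 to 81.7 in deficient libraries, while *Mcl1* lies at 54.7 to 59.9 and 61.6 to 62.6.

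Levels can be compared between genes only per length, and CPM per kilobase of exon (the union of annotated exons) is used for this. In wt libraries *Mcl1* was the highest of the family at 57.7 ± 2.72 CPM per kilobase (SD, n = 3), followed by *Bax* at 45.4 ± 0.748, *Bak1* at 36.8 ± 2.1 and *Bid* at 22 ± 2.69, and the ranges of these 4 did not overlap. *Bcl2l1* (5.68 ± 1.02) and *Bcl2l11* (4.71 ± 0.771) overlapped with each other. *Pmaip1* (2.1 ± 1.59), *Bbc3* (2.01 ± 0.75) and *Bcl2* (1.38 ± 0.421) also overlapped, and *Bmf* was lowest at 0.335 ± 0.0621. In the deficient libraries *Bax* stood first, at 80.2 ± 2.34 CPM per kilobase, above *Mcl1* at 62.2 ± 0.549. On this measure the order of *Bax* and *Mcl1* was exchanged in each of the 3 deficient libraries. In CPM without division by length, *Mcl1* (187 to 214) was above *Bax* (70.5 to 129) in all 6 libraries. The annotation that gave the lengths has 17 exon pieces for *Bax*, against 6 in the deposited counts, so its counted length may differ. *Bcl2*, *Bak1*, *Bbc3* and *Pmaip1* also differed in number, which limits orders and shares between genes.

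*Bcl2*, the founding pro-survival member (ENSMUSG00000057329, chr1:106538178-106714274, minus strand), was at 8.7, 16.4 and 12.7 CPM in wt replicates 1, 2 and 3. In deficient replicates 1, 2 and 3 it was at 4.77, 6.67 and 5.45 CPM. Each deficient library lay below each wt library, and wt replicate 2 was the highest. The log2 fold change was -1.16 ± 0.257 (SE, adjusted p = 0.0271). Without wt replicate 2 it was -0.93 with an adjusted p of 0.0228. The call was lost without wt replicate 3 or without any of the 3 deficient libraries, with adjusted p between 0.0789 and 0.12, while the change stayed between -1.37 and -0.93 over all 6 fits that left out a library. The stem and progenitor and lymphoid marker sums given above fell together with *Bcl2*, and wt replicate 2 had the highest value of both sums, as of *Bcl2*. The same held for the macrophage sum, at 7.69 to 26.3 CPM in wt and 1.37 to 3.5 CPM in deficient libraries. It also held for the endothelial sum, at 22.8 to 52.8 and 11 to 14 CPM, but not for each gene in it. *Pecam1* (43.3 CPM in wt replicate 2) and *Tek* were highest there. *Kdr* was highest in wt replicate 1, and *Cdh5* was lowest of wt in wt replicate 2 (0.384 against 0.99 and 1.29 CPM). These 4 genes were named after their values were seen. Hepatocyte sums fell too, but wt replicate 2 was the lowest wt library. Erythroid sums overlapped between the groups. The part of these cell types in the *Bcl2* result was not tested. Among the genes whose pattern over the 6 libraries was nearest to that of *Bcl2* were *Naprt* and *Fam117a*, with a root mean square difference of centred log2 CPM of 0.0523 and 0.0889.

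*Bcl2l1* (ENSMUSG00000007659, chr2:152780668-152831728, minus strand) was at 24.5, 31.3 and 22.4 CPM in wt and at 24.7, 26.6 and 28.2 CPM in deficient replicates. The groups overlapped, and the deficient libraries lay inside the wt range. Its log2 fold change was 0.02 ± 0.14 (SE, adjusted p = 0.917). *Mcl1* (ENSMUSG00000038612, chr3:95658788-95663176, plus strand), whose product is short-lived and neutralises BIM, NOXA and BAK, was at 200, 205 and 187 CPM in wt and at 211, 214 and 214 CPM in deficient replicates. Each deficient library was above each wt library, by little: the log2 fold change was 0.11 ± 0.0673 (SE, adjusted p = 0.273). No alternative fit called either gene.

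*Bax* (ENSMUSG00000003873, chr7:45461697-45466898, minus strand), an effector that moves from the cytosol into the mitochondrial membrane, was at 71.5, 70.5 and 72.8 CPM in wt replicates 1 to 3. In deficient replicates 1 to 3 it was at 129, 122 and 128 CPM. The groups were far apart and narrow, with means of 71.6 ± 1.18 and 126 ± 3.69 CPM (SD, n = 3 each). The log2 fold change was 0.82 ± 0.0623 (SE, adjusted p = 0.00578), and without wt replicate 2 it was 0.81 (adjusted p = 0.00174). Leaving out wt replicate 3, deficient replicate 2 or deficient replicate 3 put the adjusted p at 0.0508, 0.0558 and 0.0854, with log2 fold changes of 0.83, 0.86 and 0.82. In those 3 fits 5 to 8 genes were called higher and 0 lower over all genes, against 1341 and 1418 with all libraries. The nearest patterns to that of *Bax* were those of *Chid1*, *Junb* and *Wdr78* (root mean square differences of 0.0436, 0.0486 and 0.0574).

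*Bak1* (ENSMUSG00000057789, chr17:27019810-27029009, minus strand), the effector that resides in the mitochondrial membrane, was at 89, 93.6 and 83.5 CPM in wt and at 93.6, 98.4 and 102 CPM in deficient replicates. The lowest deficient library and the highest wt library met at 93.6 CPM when rounded. Its log2 fold change of 0.14 ± 0.0731 (SE) was not called (adjusted p = 0.194), and only limma-voom with sample weights called it (adjusted p = 0.0338). The ratio of *Bax* to *Bak1*, in log2 of CPM per kilobase, was 0.202 to 0.414 in wt and 0.923 to 1.07 in deficient libraries, without overlap.

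The promoter of *Bax* is shown because *Bax* is a known target of p53 and because other p53 targets moved in these libraries. These are the 250 bases before the start (RefSeq, GRCm38.p6, chr7:45466899-45467148, minus strand), with the single match of the p53 consensus motif in capitals; p53 binds a pair of such motifs.
Bax promoter: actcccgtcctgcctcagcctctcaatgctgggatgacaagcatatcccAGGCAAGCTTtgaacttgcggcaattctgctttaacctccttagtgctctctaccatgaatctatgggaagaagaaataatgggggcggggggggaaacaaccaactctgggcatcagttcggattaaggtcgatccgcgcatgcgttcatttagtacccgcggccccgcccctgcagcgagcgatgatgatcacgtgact
The motif is a palindrome and was searched in full, without mismatch, on both strands. It was held by 7.13% of 32851 mouse promoters of this length, and by 2 of the 16 promoters listed for 9 of the members, 1 of *Bax* and 1 of *Bmf*. A match is a description of the letters and not of binding.

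**Figure D2:**
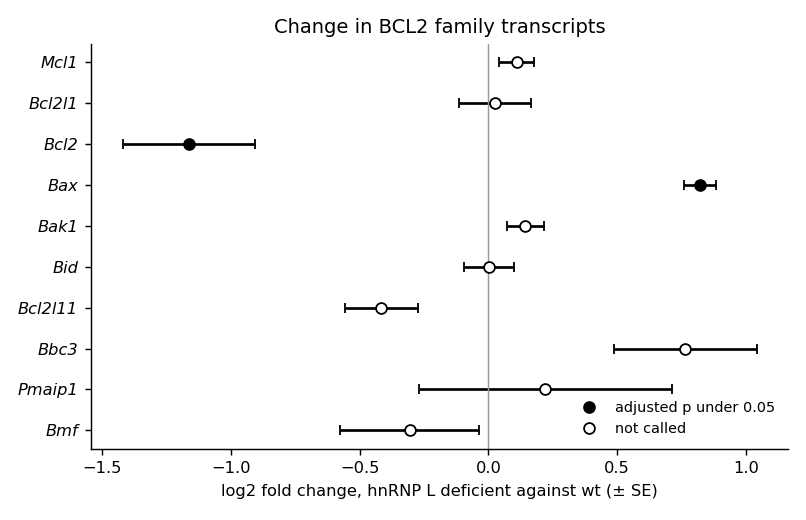
Log2 fold change of each member, hnRNP L deficient against wt, with its standard error, where filled points have an adjusted p under 0.05. *Bcl2* at -1.16 and *Bax* at 0.82 are filled, *Bbc3* at 0.76 and *Bcl2l11* at -0.42 are open, and *Pmaip1* has the widest error, 0.491.

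No BH3-only member was called by edgeR with all 6 libraries. An unadjusted p under 0.05 in edgeR was reached by 2 of the 5, *Bcl2l11* (0.0208) and *Bbc3* (0.0275). Over all genes it was reached by 5417 of 14396, so the count of members was near that background. DESeq2 called both members, and it called 1923 genes higher and 2227 lower of 15378 tested. *Bbc3* (ENSMUSG00000002083, chr7:16308393-16318205, plus strand), which encodes PUMA, was at 2.77, 4.1 and 5.95 CPM in wt and at 7.3, 7.07 and 7.43 CPM in deficient replicates. Each deficient library lay above each wt library, and the wt libraries were spread widely. Its log2 fold change was 0.76 ± 0.277 (SE, adjusted p = 0.0907 in edgeR and 0.022 in DESeq2).

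*Bcl2l11* (ENSMUSG00000027381, chr2:128126038-128162547, plus strand), which encodes BIM, was at 39.4, 31 and 43 CPM in wt and at 28, 31.2 and 25.8 CPM in deficient replicates. Wt replicate 2 fell among the deficient libraries. The log2 fold change was -0.42 ± 0.141 (SE, adjusted p = 0.0769). Without wt replicate 2 it was -0.54 and passed (adjusted p = 0.0127), as it did in DESeq2 (0.0471) and in limma-voom with sample weights (0.0101).

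*Pmaip1* (ENSMUSG00000024521), which encodes NOXA, a partner of MCL1, turned on wt replicate 2. It was at 2.83, 10.7 and 3.62 CPM in wt and at 5.86, 6.66 and 7.5 CPM in deficient replicates. The deficient libraries lay between wt replicate 2 and the other wt libraries. With all libraries the log2 fold change was 0.22 ± 0.491 (SE, adjusted p = 0.776), and without wt replicate 2 it was 1.05 (adjusted p = 0.013). It turned slightly below 0 without wt replicate 1 (-0.1) or wt replicate 3 (-0.02). Wt replicate 2 is the library with the high myeloid markers (7960 CPM summed, above); their part in this value was not tested.

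*Bid* (ENSMUSG00000004446, chr6:120891930-120916853, minus strand), which links death receptors to mitochondria once cut by caspase-8, was at 70.6, 88.8 and 74.7 CPM in wt and at 79.8, 75.5 and 79.1 CPM in deficient replicates (log2 fold change 0.0023 ± 0.0966, SE, adjusted p = 0.989). *Bmf* (ENSMUSG00000040093, chr2:118528757-118549687, minus strand), a sensor of cytoskeletal stress, was at 1.6, 2.13 and 1.54 CPM in wt and at 1.58, 1.12 and 1.57 CPM in deficient replicates (log2 fold change -0.31 ± 0.27, SE, adjusted p = 0.442). The groups overlapped for both genes, and no alternative called either. Exons of 4 members overlap those of another gene: 12.2% of the exon bases of *Bax* lie under *Gm45808* on the same strand, and 17.7% of those of *Bid*, 6.09% of those of *Bcl2* and up to 18.2% of those of *Bak1* lie under a gene on the opposite strand (*Bcl2l13*, *D630008O14Rik* and *Ggnbp1*). The kit marks strand, but the strand setting of the counting was not given in the sources used here.

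The share of *Bax* in the summed transcripts of the family was 25.5% in wt and 36.3% in hnRNP L deficient libraries on average, while that of the other effector, *Bak1*, was 20.7% and 18.4%. Summed over members, pro-survival transcripts were at 60.9 to 68.6 CPM per kilobase in wt and at 67.5 to 69.3 in deficient libraries, and BH3-only transcripts were at 27.4 to 35.1 and 31.1 to 32.1. Effector transcripts were at 80.9 to 83.6 in wt and at 118 to 124 in deficient libraries, the one sum of the 3 whose groups were widely apart. As a share of the summed level of all 10 members, the effectors together made up 46.2% in wt and 54.6% in deficient libraries on average, pro-survival members 36.3% and 31%, and BH3-only members 17.4% and 14.3%. These shares and the ratios below include *Bax* and *Bcl2*, whose changes are given above. *Bcl2* made up only 0.768% of the summed level in wt and 0.278% in deficient libraries on average. The shares and ratios were not tested, and an exact permutation test of 3 against 3 libraries cannot give a p under 0.1.

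The log2 ratio of all pro-death to all pro-survival transcripts was 0.761, 0.792 and 0.874 in wt replicates 1 to 3 and 1.17, 1.11 and 1.17 in deficient replicates 1 to 3. The groups did not overlap, and the mean difference was 0.343. Without division by length the difference was 0.211, and without *Mcl1*, which makes up 32.4% of the summed level in wt, it was 0.558. The balance was not computed without *Bax*. Mean *Bax* was 45.4 CPM per kilobase in wt and 80.2 in deficient libraries, whereas *Bak1* was at 36.8 and 40.7. The effectors alone against the pro-survival members gave 0.347 ± 0.0614 in wt and 0.817 ± 0.035 in deficient libraries (SD, n = 3 each), whereas the BH3-only members against the pro-survival members gave -1.06 ± 0.153 and -1.12 ± 0.0331, with overlapping groups.

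Ratios of single pairs with *Bax* were higher in each deficient library. *Bax* to *Bcl2* was at 5.58, 4.64 and 5.06 in wt and at 7.29, 6.73 and 7.09 in deficient replicates, in log2 of CPM per kilobase, a difference of 1.95. *Bax* to *Bcl2l1* differed by 0.783 and *Bax* to *Mcl1* by 0.709, both without overlap. *Bak1* to *Mcl1* differed by 0.0338, with overlap. *Bcl2l11* to *Mcl1* was lower by 0.517 without overlap (difference -0.517). *Bbc3* to *Bcl2l1* (0.798) and *Pmaip1* to *Mcl1* (0.36) overlapped between the groups.

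**Figure D3:**
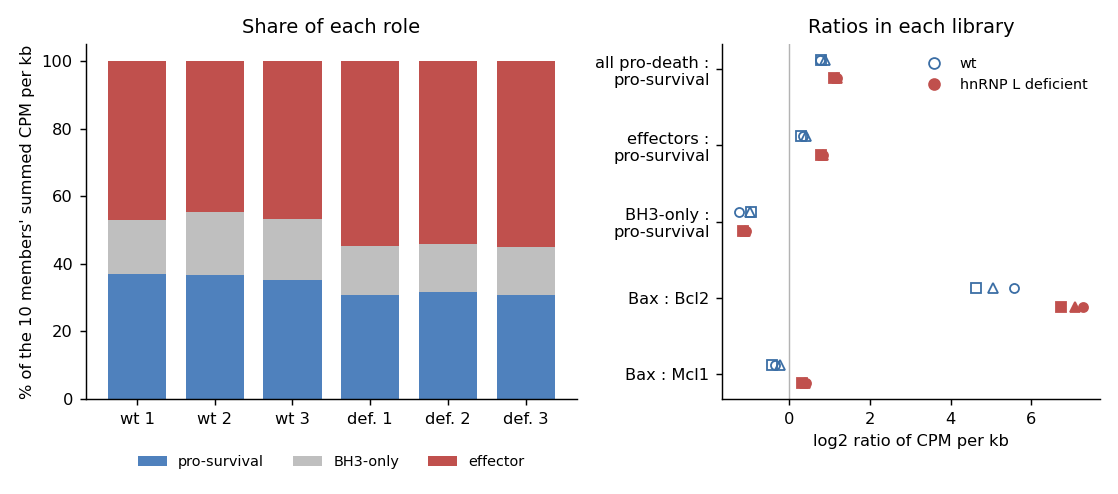
Left, share of each role in the summed CPM per kilobase of the 10 members in each library (wt 1 to 3 and hnRNP L deficient, def., 1 to 3), with bars starting at 0. Right, log2 ratios of CPM per kilobase in each library, where the deficient libraries lie at 1.11 to 1.17 for all pro-death to pro-survival members and the wt libraries at 0.761 to 0.874.

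Whether loss of hnRNP L changed how the members are spliced was read from exon bins, the pieces of a gene between annotated exon edges. The 10 members have 121 bins, of which 90 had a mean of at least 10 reads and were tested. With diffSpliceDGE, 0 of the 90 were called, beside 0.0288% of all 176996 bins. At an unadjusted p under 0.05 there was 1 of 90, beside 1.03% of all bins. By limma diffSplice there was 1 of 90, beside 2.65% of all bins. By the DEXSeq model fitted with DESeq2 there were 5 of 90, beside 4.31% of all bins. These 2 alternatives also called 0 of the member bins. This test compared 3 wt with 2 deficient libraries. *Hnrnpl* transcripts remained at a mean of 267 CPM over all 3 deficient libraries, against 537 CPM in wt. The study raised the possibility that cells with incomplete deletion and leftover hnRNP L protein made splicing changes hard to detect in this RNA-Seq. The number of bins in the deposited counts matched that of GENCODE M21 for *Bcl2l1*, *Mcl1*, *Bcl2l11*, *Bid* and *Bmf*, and positions are given for these only, by that match in number.

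*Bcl2l1* has 21 bins, of which 13 were tested, and their changes in usage lay between -0.73 and 0.17 in log2, with no p under 0.367. Bin 8, the long-form stretch printed above, had 139, 234 and 183 reads in wt replicates 1 to 3 and 201 and 297 reads in deficient replicates 2 and 3. It took 7.59%, 8.77% and 7.98% of the reads on bins of the gene in wt and 8.22% and 9.71% in deficient libraries, with overlap (log2 usage 0.14, adjusted p = 1, diffSpliceDGE in edgeR). Bin 11, the upstream part of the same exon, with the start of the coding sequence, that both forms hold, had 297, 407 and 330 reads in wt and 332 and 421 reads in deficient libraries.

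Per base, the log2 ratio of bin 8 to bin 11 was 0.667, 0.964 and 0.912 in wt and 1.04 and 1.26 in deficient libraries. The deficient values were the higher, by 0.301 on average, and the difference was not called in the bin test. Bin 9, next to bin 8 in the same exon, differed by 0.298 against bin 11, also without overlap. The share of bin 11 itself was 14.4% to 16.2% in wt and 13.6% and 13.8% in deficient libraries. The rise relative to bin 11 was thus not confined to bin 8. Bin 3, which holds the last coding exon and part of the 3′ UTR, was at -0.253 to -0.185 relative to bin 11 in wt and at -0.143 and -0.00124 in deficient libraries. Reads running from bin 8 into the intron, counted on bins 4 to 7 over 1300 bases, summed to 0, 6 and 6 in wt and 0 and 6 in deficient libraries, where a read may count on more than 1 bin. The transcripts that retain this intron were thus at or near the floor in both genotypes, next to 139 to 297 reads on the 102 bases of bin 8.

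*Mcl1* has 7 bins, all tested, with changes in usage between -0.04 and 0.17 in log2 and no p under 0.483. Bin 5, the middle exon, had 1565, 1714 and 2049 reads in wt and 1926 and 2379 reads in deficient libraries. Its share of the gene's bin reads was 12.1%, 11.9% and 12.7% in wt and 11.6% and 12.4% in deficient libraries, with overlap (log2 usage -0.02, adjusted p = 1, diffSpliceDGE in edgeR). Per base and relative to the coding exon bins on both sides of it (bins 4 and 6), it was at 0.737, 0.777 and 0.651 in wt and at 0.553 and 0.617 in deficient libraries, lower by 0.136 in log2 on average (difference -0.136). The groups did not overlap on this ratio, but bin 5 was not called in the bin test. On the other ratios taken within *Mcl1*, bin 3 to bin 2 and bin 7 to bin 6, the groups overlapped. At between 1565 and 2379 reads, depth was not what limited this comparison, but only 2 deficient libraries entered it. Reads across exon junctions, which would show skipping directly, were not used here.

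**Figure D4:**
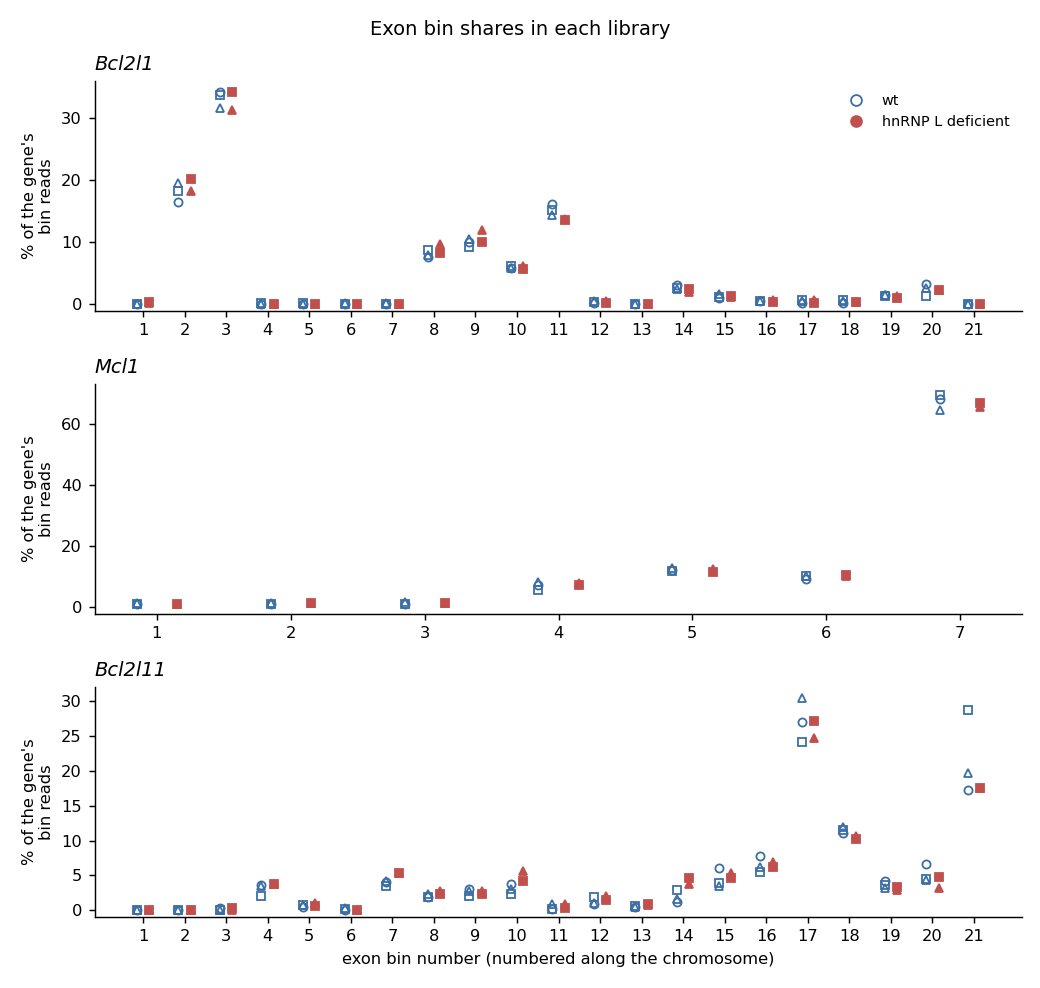
Share of the gene's bin reads on each exon bin of *Bcl2l1*, *Mcl1* and *Bcl2l11*, in percent, in 3 wt (open) and 2 hnRNP L deficient libraries (filled, replicates 2 and 3), with symbol shape for the replicate number. The genotypes lie on each other at bin 8 of *Bcl2l1* (7.59% to 9.71%) and at bin 5 of *Mcl1* (11.6% to 12.7%), and are apart at bin 14 of *Bcl2l11*.

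The bin with the smallest p of all member bins was chosen after its values were seen: bin 14 of *Bcl2l11* (chr2:128130146-128131495, plus strand), 1350 bases of noncoding exon found only in transcript Bcl2l11-202, which ends there. It had 35, 65 and 63 reads in wt and 122 and 97 in deficient libraries, or 1.21%, 2.82% and 1.58% against 4.55% and 3.74% of the gene's bin reads. Both deficient libraries were above all 3 wt libraries although the gene as a whole was not higher in them. Its log2 change in usage was 1.22 with an unadjusted p of 0.00948 and an adjusted p of 1 (diffSpliceDGE in edgeR). It was the leading member bin in each alternative, with the smallest adjusted p, 0.0646, without wt replicate 2. It was not called in any fit. The 2 deposited bins of *Bcl2*, whose positions could not be matched, held 67.5% to 75.6% (bin 1) of its bin reads in wt and 57.7% to 62.5% in deficient libraries, and neither was called (adjusted p = 1, diffSpliceDGE in edgeR).

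Other genes of the pathway were read from lists of names. Of 20 further BCL2 family genes, 18 were matched and 13 tested, and 0 were called by edgeR. An unadjusted p under 0.05 was reached by 5 of the 13, near the background of 5417 of all 14396 genes tested. DESeq2 and limma-voom each called 1 as lower, *Bcl2l14* (log2 fold change -1.28, adjusted p = 0.0325) and *Bok* (-1.96, adjusted p = 0.0292). *Bok*, an effector of the same fold as BAX, was at 0.63, 1.27 and 0.908 CPM in wt and at 0.466, 0.398 and 0.121 CPM in deficient replicates. These names were chosen after their values were seen. The list's log2 fold changes ranged from -1.51 to 0.33 with a median of -0.02.

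Downstream of the membrane, 16 genes of caspase activation were tested, with 2 called higher and 5 lower and a median log2 fold change of -0.11. Over all genes tested, 9.32% were called higher and 9.85% lower, to be set beside the counts of this and the next lists. *Htra2* (0.41) and *Endog* (0.55), a protease and a nuclease released from mitochondria, rose. *Casp9* (-0.37), the initiator caspase of the apoptosome, and *Casp6* (-0.48), an executioner, fell. *Xiap* (-0.37) and *Birc2* (-0.27), inhibitor of apoptosis proteins, and *Sept4* (-1.98), whose ARTS isoform antagonises XIAP, fell as well. *Sept4* had the largest change of the list, from 12.4, 12.7 and 15.4 CPM in wt to 3.87, 3.37 and 2.99 CPM in deficient replicates (SE 0.173, adjusted p = 0.00724). Caspases, inhibitors of caspases and an antagonist of such an inhibitor were thus among those that fell. *Birc2* was not called without the expression filter (adjusted p = 0.0961) or without robust estimation (0.0513). Most calls of this list depended on single libraries. Without wt replicate 3 or any one deficient library, 0 were called higher and 0 or 1 lower.

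Of 11 genes of the mitochondrial pore and membrane dynamics, 1 was called, the fusion gene *Mfn2* (0.26, higher), and the median was 0.02. Of 8 tested genes that act on the turnover of MCL1 and BIM proteins, *Cdc20* (0.3) rose and *Btrc* (-0.61), the ubiquitin ligase subunit, fell. Of 9 tested transcription factors that induce BH3-only genes, *Atf4* (0.49) rose and *Foxo4* (-0.66) fell. *Trp53* itself, named after its values were seen, had a log2 fold change of 0.14 (SE 0.0864, adjusted p = 0.262).

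Of 10 genes induced by p53 outside the family, 9 were called higher and 0 lower, with a median log2 fold change of 2.06. The study had already named *Cdkn1a*, *Trp53inp1*, *Zmat3*, *Ccng1*, *Fas* and *Tnfrsf10b* as up-regulated in the same RNA-Seq. The count therefore describes the list and is not independent evidence. The largest changes were those of *Cdkn1a* (4.25), the cell cycle inhibitor p21, *Fas* (3.42, SE 0.809), a death receptor, *Trp53inp1* (2.76), *Tnfrsf10b* (2.71), *Zmat3* (2.67) and *Ccng1* (1.45). *Fas* had only 3, 36 and 7 reads in wt replicates 1 to 3, against 174, 135 and 243 in deficient replicates, and the fit that left out wt replicate 2 gave it 5.08, above *Cdkn1a* in the same fit (4.87). *Bax* rose as well, by 0.82, a value between those of *Pidd1* (0.61) and *Mdm2* (0.9), which were named after their values were seen. Whether p53 had a part in the change of *Bax* was not tested. Over all 6 pathway lists, 14 genes were called higher and 7 lower with all libraries. Without wt replicate 3, 0 and 0 were called. Leaving out deficient replicate 1, 2 or 3 left 3, 1 and 1 called higher and 1, 0 and 0 lower, while *Cdkn1a* stayed between 3.99 and 4.87. *Pmaip1* (0.22) and *Bbc3* (0.76), also known p53 targets, were not called. *Perp*, the list member not called (log2 fold change -0.5, adjusted p = 0.584) and named after its values were seen, was at 4.12, 15.4 and 3.17 CPM in wt and at 4.02, 6.38 and 5.61 CPM in deficient replicates, with its highest value in wt replicate 2, as *Pmaip1*.

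**Figure D5:**
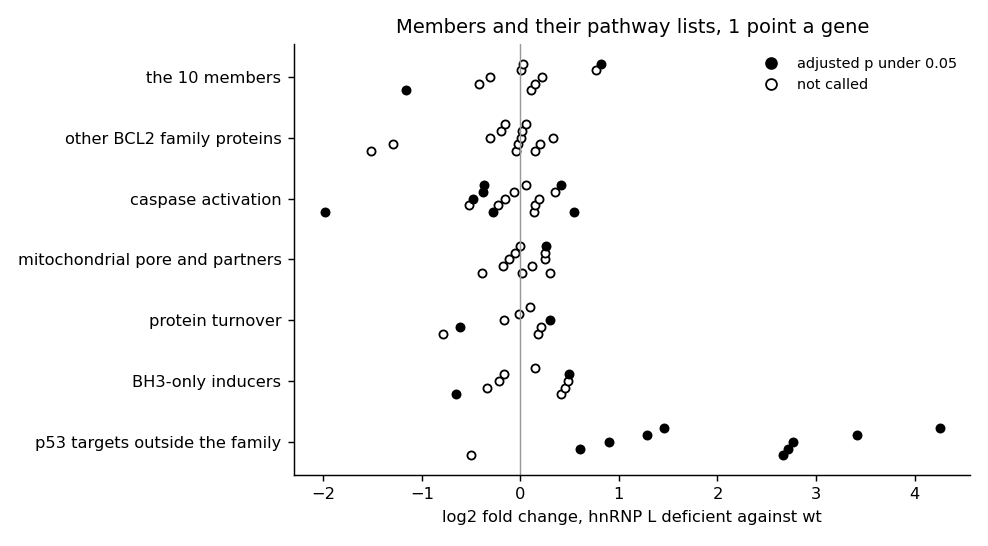
Log2 fold change of each tested gene of the family and of 6 pathway lists, hnRNP L deficient against wt, 1 point a gene, with filled points at an adjusted p under 0.05. All called genes of the p53 list lie to the right, between 0.61 and 4.25, while the members and the other lists lie on both sides of 0.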

How the data were processed

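RNA of sorted Lin-cKit+ FL cells was sequenced from 3 wt and 3 hnRNP L deficient embryos, grouped by the genotype in the sample labels. The authors aligned reads to GRCm38 (TopHat2 2.0.10) and deposited raw counts without normalization, per Ensembl gene from HTSeq and per exon bin from the DEXSeq script. The Ensembl release and counting options were not given in the sources used here. Gene counts were tested in edgeR 4.0.16 (R 4.3.3) by the quasi-likelihood test with TMM, the default expression filter (14396 of 38293 genes), robust estimation and Benjamini-Hochberg adjustment. CPM are counts over the TMM-scaled library size, divided by exon length where given per kilobase. For bins, diffSpliceDGE of the same package was run where the mean reached 10 reads. Alternatives were RLE scaling, DESeq2 1.42.0, limma 3.58.1 (voom, diffSplice), other filters and leaving out each library. SD and SE cover the spread between libraries of separately numbered embryos, which may share litters; no replicate pair agreed within sampling noise (chi-square of 19.5 or more per gene in each pair). Intervals from read numbers alone would cover counting error only. Members and lists were chosen with earlier results of these data known.

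Positions and exon sequences are from GENCODE M21 (GRCm38), the promoter from RefSeq. The 5 summary lines of the gene counts that name no gene were left out; reads on genes made up 46.7% to 53.3% of the totals. Genes named in the text are all members, *Hnrnpl*, the called genes of each list (up to 6 in each direction) and the 3 genes of nearest pattern to each called member, by root mean square difference of centred log2(CPM + 0.1), of which 1 is not reported here; others are marked as chosen after their values were seen.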

Additional observations from a re-analysis of the deposited data

How the results depend on the processing

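All 6 fits with another scaling, filter or tool called *Bax* higher and *Bcl2* lower. Over all genes, limma-voom called 2576 higher and 2774 lower and DESeq2 called 2227 lower. Leaving out a library gave 5 to 2312 genes higher and 0 to 2479 lower. Among the members, DESeq2 called 2 higher and 2 lower and limma-voom 3 higher and 2 lower, and fits without a library called 0 to 2 higher and 0 to 2 lower. Of the pathway lists, limma-voom called 15 genes lower; fits without a library gave 0 to 19 higher and 0 to 13 lower. The difference in balance was 0.211 without division by length, 0.558 without *Mcl1*, and between 0.319 and 0.376 without a library. It was not computed without *Bax*. Of exon bins, limma diffSplice called 218 and the DEXSeq model 541 against 51, and fits without a library 3 to 158; 0 member bins were called in each of the 9 alternatives. Without wt replicate 3 or any of the 3 deficient libraries, 5 to 15 genes were called higher and 0 to 2 lower, and the cause was not tested. No paired analysis was possible because replicates were numbered here in accession order, which pairs no samples, and the first part of the embryo number in the labels is shared between the groups by only 1 pair (wt replicate 1 and deficient replicate 1). The groups held 3 libraries each, or 2 for exon bins of deficient cells; *Bmf* had the fewest reads of the members, 73 to 128 per library.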
